A study of Mus musculus with 4 samples.

Results

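The proximal tubule takes back most of what the kidney filters, and it does so with carriers in its apical brush border and in its basolateral membrane. The sodium pump in the basolateral membrane keeps sodium low inside the cell, and apical cotransporters use that gradient to pull in phosphate, glucose, amino acids, lactate, sulfate and dicarboxylates. Basolateral carriers then pass the solutes on to the blood, while other carriers move organic anions and cations into the urine. The genes described here are 41 carriers, channels and scaffold genes of this tubule outside the Slc22a family, chosen by name from a fixed list. That list was drawn up with earlier results of these data known. All 41 were found among the 32151 named genes with deposited values, and all 41 passed the filter on low values (a mean of at least 0.5 FPKM over the 4 libraries).

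Whole kidneys were compared between an early-onset mouse model of autosomal dominant polycystic kidney disease (ADPKD; 2 libraries) and wild-type mice (WT; 2 libraries). The ADPKD mice had the genotype Pkd1fl/fl; Cre/Esr1+, a floxed gene for polycystin-1 and a Cre recombinase that tamoxifen activates; the labels do not name the promoter of the Cre. WT mice are labelled wildtype, and both groups are labelled as given tamoxifen (10 mg/kg) at postnatal day 10. The age at which the kidneys were taken, and whether each library is a separate animal, are not in the labels, so p-values measure the spread between these libraries. FPKM, the deposited unit, is the number of reads per unit of exon length, scaled to the reads assigned to genes in that library, so levels may be compared between genes.

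Depth was alike, between 18001308 and 19955120 assigned reads per library. ADPKD replicate 2 stood apart by Xist, the silencing RNA of the inactive X chromosome, at 29.6 FPKM against 0.0121 to 0.0217 FPKM in the other libraries, and by the Y-linked gene Ddx3y, at 0.0482 FPKM against 8.46 to 15.1 FPKM. By these genes ADPKD replicate 2 has the pattern of a female and the other libraries that of males, so the ADPKD libraries came from different animals. The labels give no sex, and its part in the differences between groups was not tested. The injured tubule markers Havcr1, Lcn2, Krt20 and Vcam1 summed to 481 and 565 FPKM in ADPKD replicates 1 and 2, against 4.04 and 3.82 FPKM in WT, and 4 of 4 rose. Macrophage markers summed to 155 and 470.3 FPKM in ADPKD and 27.6 and 50.1 FPKM in WT, with 3 of 4 higher. Fibroblast markers summed to 235 and 162 FPKM in ADPKD and 44.4 and 43.6 FPKM in WT, with 2 of 3 higher. Proximal tubule markers other than carriers fell in 9 of 10 cases, and without the very abundant androgen-dependent gene Kap they summed to 782 and 680.0 FPKM in ADPKD against 4026 and 3864 FPKM in WT. Of other nephron markers 2 of 4 for the thick ascending limb, 2 of 3 for the distal convoluted tubule, 1 of 4 for intercalated cells and 0 of 4 for principal cells fell. Of 3 podocyte, 3 endothelial and 2 red blood cell markers limma called 0, with median log2 fold changes of -1.01, -0.86 and -2.63. Of adrenal markers 1 of 3 and of liver markers 2 of 3 passed the filter, and 0 were called. Over all 17001 genes tested limma called 9.43% higher and 4.78% lower. The marker lists too were chosen with earlier results of these data known, so their counts only describe them. The red blood cell genes summed to 134 and 47.5 FPKM in ADPKD against 1071 and 234 FPKM in WT. The part these differences play in the carrier values was not tested, and in whole kidney fewer cells of a type and less RNA per cell cannot be told apart.

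Most of the carriers were lower in ADPKD kidneys, but not by like amounts, and a few were not lower at all. Of the 41 genes 14 fell (34.1%), against 4.78% of all 17001 genes tested, and 1 rose (2.44%), against 9.43% of all genes, by limma with a Benjamini-Hochberg adjusted p below 0.05. The remaining 26 were not called. Because the members were chosen with earlier results of these data known, these shares are a description, and no set test was made. Of all genes called 66.4% were higher, against 47.5% after quantile normalization and 45.8% after scaling by the median of ratios; 15 members fell with either. Both ADPKD libraries lay below both WT libraries for 30 of the 41 genes, against 21.0% of all genes, and above both for 4 genes, against 43.6% of all genes. The 30 include Slco1a1, which WT replicate 2 alone carried past the filter (0 and 1 reads in ADPKD, 5 and 378 in WT). The median log2 fold change over the 41 genes was -1.04, against 0.18 over all genes tested. Summed over the 41 genes, the level was 2189 and 1993 FPKM in ADPKD replicates 1 and 2, and 4072 and 4512 FPKM in WT replicates 1 and 2.

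The 14 genes that fell were Slc34a1, Slc34a3, Slc5a8, Slc16a4, Slc6a20b, Slc6a13, Slc1a1, Slc13a3, Slc9a3, Slc17a3, Slco4c1, Slc47a1, Slc23a1 and Pdzk1, and the gene that rose was Slc13a1. These calls rest on few libraries and on the filter: with no filter limma called 0 members and 1 of 32151 genes (7251 at an unadjusted p under 0.05). Without ADPKD replicate 2 limma called 0 of 16978 genes (5039 at an unadjusted p under 0.05), so all 15 calls were lost. Of the 15, leaving out ADPKD replicate 1 lost 13, leaving out WT replicate 1 lost 8 and leaving out WT replicate 2 lost 14. Slc16a4 was called in each of those last 3 fits. The sign of the log2 fold change of each of the 15 genes stayed the same under every one of the 12 alternative settings in which the gene was tested; Slco4c1 was not tested with a mean of at least 5 FPKM.

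**Figure D1:**
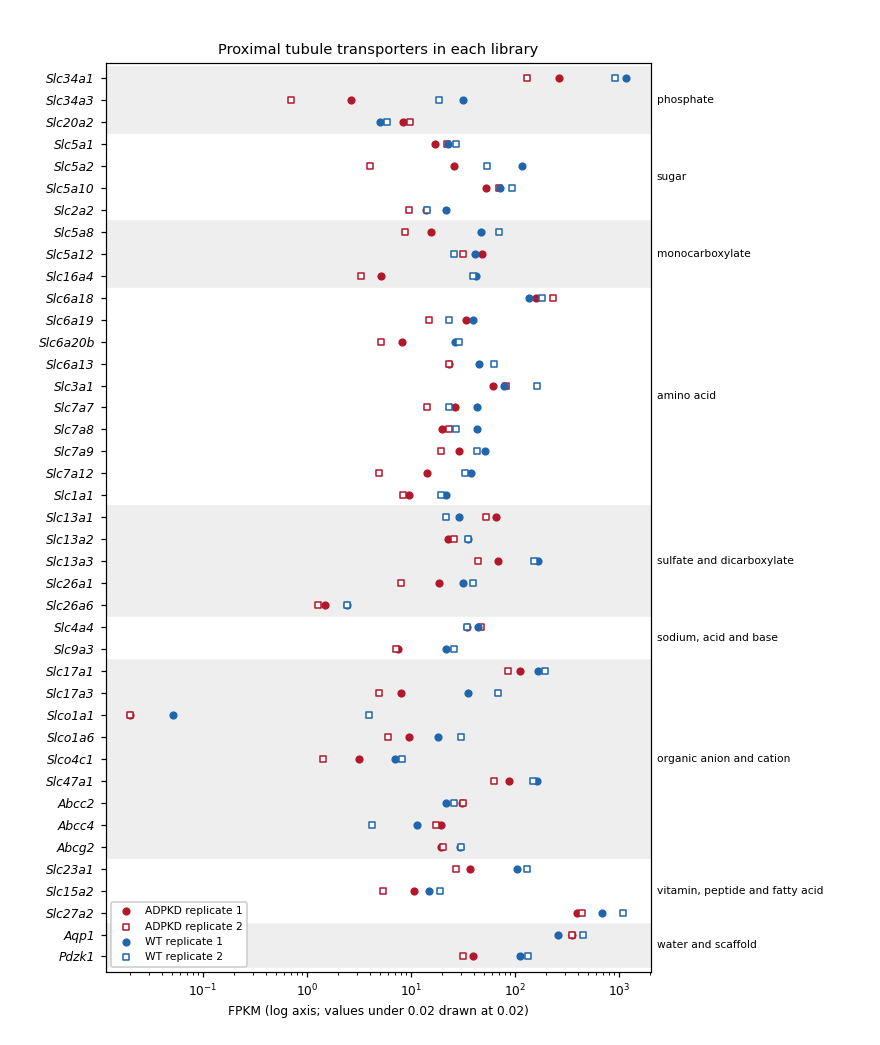
Level of each of the 41 genes in each library, in FPKM on a log axis, grouped by substrate; filled circles are replicate 1 and open squares replicate 2, red for ADPKD and blue for WT. For 30 genes both red points lie left of both blue points, for 4 they lie right, and Slco1a1 is near 0 in 3 libraries (its ADPKD values are drawn near the left edge).

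**Figure D2:**
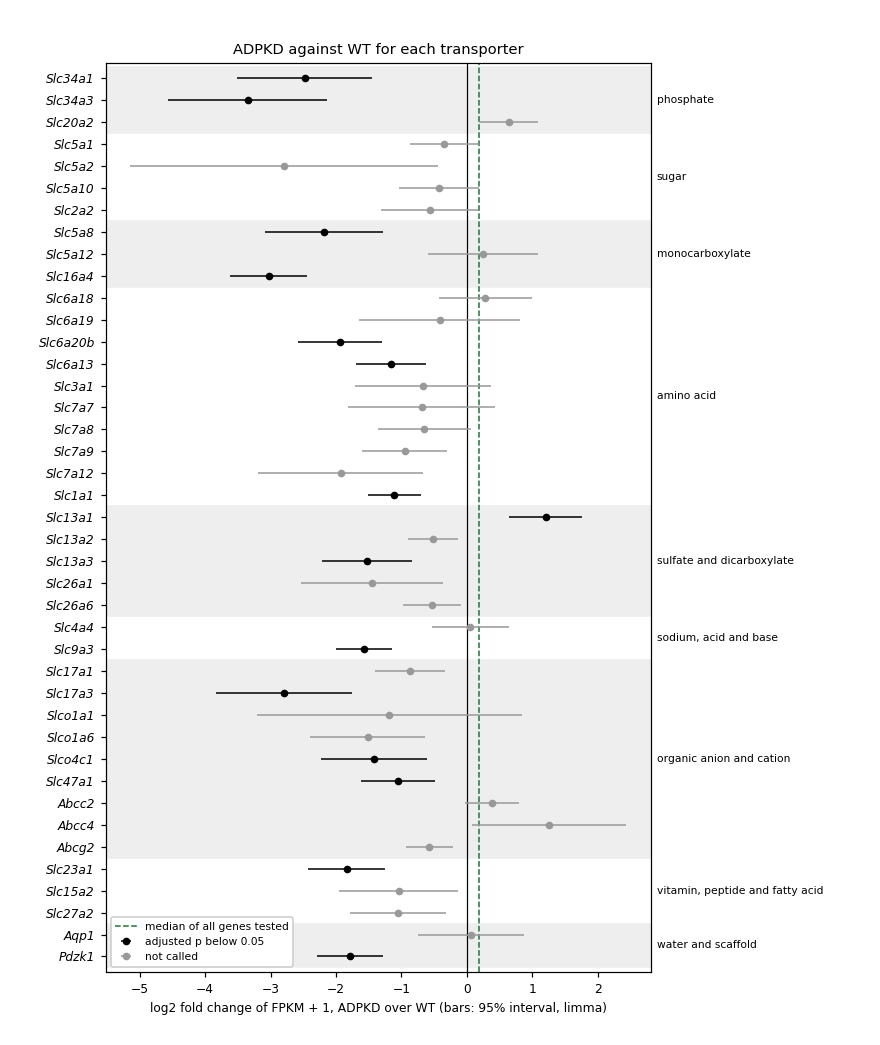
Log2 fold change of FPKM + 1, ADPKD over WT, for each gene with its 95% interval from limma; black points passed an adjusted p of 0.05 and grey points did not. The black points lie between -3.35 for Slc34a3 and -1.05 for Slc47a1, apart from Slc13a1 at 1.21, and the dashed line marks the median of all genes tested, 0.18.

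The stretch of DNA just before the start of a gene is shown for 6 carriers, because genes that move together may share letters there. These are the 4 genes with the lowest log2 fold changes among those called (Slc34a3, Slc16a4, Slc17a3, Slc34a1), the carrier with the longest HNF4 match found (Slc3a1), and a carrier that was not lower (Abcc2). Each run is the 250 bases upstream of the RefSeq start site on GRCm38.p6, read 5′ to 3′ on the strand of the gene. Capitals mark letters searched for HNF1 and HNF4, transcription factors of the proximal tubule: GTTAAT for HNF1 and CAAAGT or CAAAGTCCA for HNF4, or their complement on the opposite strand.
Slc34a3 (chr2:25234235-25234484, minus strand): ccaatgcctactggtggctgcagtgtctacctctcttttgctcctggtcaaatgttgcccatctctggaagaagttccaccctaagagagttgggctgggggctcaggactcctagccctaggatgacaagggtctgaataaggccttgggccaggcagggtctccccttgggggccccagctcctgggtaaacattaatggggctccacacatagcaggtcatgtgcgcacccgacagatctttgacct
Slc16a4 (chr3:107290980-107291229, plus strand): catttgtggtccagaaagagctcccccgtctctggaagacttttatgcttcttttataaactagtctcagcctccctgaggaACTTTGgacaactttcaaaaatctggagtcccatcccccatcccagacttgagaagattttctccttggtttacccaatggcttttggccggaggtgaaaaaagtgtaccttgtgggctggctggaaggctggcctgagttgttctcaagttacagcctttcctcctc
Slc17a3 (chr13:23839184-23839433, plus strand): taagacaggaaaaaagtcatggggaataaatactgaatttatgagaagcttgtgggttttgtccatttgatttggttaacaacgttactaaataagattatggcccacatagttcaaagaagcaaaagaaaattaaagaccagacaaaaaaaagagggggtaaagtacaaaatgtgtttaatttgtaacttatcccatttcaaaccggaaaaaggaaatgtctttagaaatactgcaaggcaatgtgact
Slc34a1 (chr13:55399398-55399647, plus strand): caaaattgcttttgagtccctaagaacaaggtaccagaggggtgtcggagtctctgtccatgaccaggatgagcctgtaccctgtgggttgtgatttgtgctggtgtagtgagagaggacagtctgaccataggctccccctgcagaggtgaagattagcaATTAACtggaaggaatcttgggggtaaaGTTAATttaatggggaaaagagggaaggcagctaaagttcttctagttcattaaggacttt
Slc3a1 (chr17:85028097-85028346, plus strand): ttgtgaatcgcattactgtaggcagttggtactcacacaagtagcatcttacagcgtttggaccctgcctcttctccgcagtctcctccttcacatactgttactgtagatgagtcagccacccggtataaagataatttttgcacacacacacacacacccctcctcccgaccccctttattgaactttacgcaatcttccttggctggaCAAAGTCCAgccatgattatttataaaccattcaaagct
Abcc2 (chr19:43782058-43782307, plus strand): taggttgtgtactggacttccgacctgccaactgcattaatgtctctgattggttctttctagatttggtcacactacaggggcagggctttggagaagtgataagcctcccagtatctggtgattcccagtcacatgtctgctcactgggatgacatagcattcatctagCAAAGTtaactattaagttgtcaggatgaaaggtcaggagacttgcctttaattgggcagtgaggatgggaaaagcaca

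Promoter windows were at hand for 33 of the 41 genes. Some genes have several start sites, so shares are given over windows: 48 for the 33 genes (1.45 per gene) and 32851 for all 27025 genes (1.22 per gene). GTTAAT occurred in 4 of the 48 windows (8.33%), against 6.43% of all windows, and Slc34a1 held 2 copies, at -89 on the opposite strand and at -61 on its own strand. CAAAGT occurred in 9 of the 48 (18.8%), against 12.6% of all windows. Of the 15 windows of genes that fell 1 held it, Slc16a4 at -168 on the opposite strand, and of the 33 windows of the other genes 8 held it, among them Abcc2 at -79. The longer CAAAGTCCA, which contains CAAAGT, was found in Slc3a1 at -39 and in 0.384% of all windows. The full HNF1 palindrome, 13 bases long, was in 0 of the 48 windows and in 0.00913% of all windows. Slc34a3 and Slc17a3 held neither set of letters in these windows. A match describes the letters and not a bound site.

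Of the phosphate carriers 2 of 3 fell, against 4.78% of all genes tested, and the third lay above WT without passing the test. Slc34a1 encodes the main apical sodium-phosphate cotransporter (NaPi-IIa; chromosome 13, 55398187 to 55415592), and it had the highest mean of the 41 genes in WT kidney. Its level was 263 and 131 FPKM in the ADPKD libraries, replicate 1 first, against 1180 and 910.2 FPKM in the WT libraries in the same order. It fell by 2.48 on the log2 scale (SE 0.39, limma adjusted p = 0.0308), and ranked behind Slc27a2 and Aqp1 in ADPKD kidney. Slc34a3, which encodes the related cotransporter NaPi-IIc (chromosome 2, 25228898 to 25234364), stood at 2.63 and 0.701 FPKM in ADPKD and at 31.5 and 18.8 FPKM in WT. It fell by 3.35 (SE 0.46, limma adjusted p = 0.0259), the lowest log2 fold change of the 41. Both ADPKD libraries lay below both WT libraries for either gene, as for 21.0% of all genes, and ADPKD replicate 2 was the lowest library for both.

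Slc20a2, which encodes the sodium-phosphate cotransporter PiT-2, had values of 8.41 and 9.84 FPKM in ADPKD kidneys and 5.06 and 5.93 FPKM in WT kidneys. Both ADPKD libraries lay above both WT libraries, as did 43.6% of all genes. The difference was not called (log2 fold change 0.64, 95% interval 0.19 to 1.09, limma adjusted p = 0.0768). The log2 fold change was 0.44 with median-of-ratios scaling and 0.39 with quantile normalization. A ratio of levels within a library does not depend on how libraries are scaled to each other. Slc34a1 over Slc20a2 was 31.3 and 13.3 in ADPKD replicates 1 and 2, against 233 and 153 in WT replicates 1 and 2. The gap between the apical cotransporter and PiT-2 was thus smaller in both ADPKD libraries.

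Of the sugar carriers 0 of 4 were called by limma. Both ADPKD libraries lay below both WT libraries for 4 of 4, against 21.0% of all genes, but for Slc5a1, Slc2a2 and Slc5a10 the groups nearly touch. Slc5a2 encodes SGLT2, the sodium-glucose cotransporter of the early proximal tubule (chromosome 7, 128265657 to 128272430), and had 25.7 and 4.03 FPKM in ADPKD kidneys and 116 and 54.1 FPKM in WT kidneys. Its log2 fold change was -2.79, with a 95% interval of -5.14 to -0.45 (limma adjusted p = 0.105). The wide interval goes with libraries that differed 6.38-fold within ADPKD and 2.14-fold within WT, and BC017158 covers 20.6% of its exons. Slc5a1, the gene of SGLT1 in the late tubule, stood at 16.9 and 22.0 FPKM in ADPKD and at 22.5 and 27.2 FPKM in WT (log2 fold change -0.34, 95% interval -0.88 to 0.19, limma adjusted p = 0.293). Slc5a2 over Slc5a1 was 1.52 and 0.183 in ADPKD, against 5.15 and 1.99 in WT.

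Slc2a2 encodes GLUT2, which lets glucose out across the basolateral membrane. It had 13.9 and 9.55 FPKM in ADPKD kidneys and 21.5 and 14.4 FPKM in WT kidneys (log2 fold change -0.57, 95% interval -1.31 to 0.18). Slc5a10, a cotransporter of the same family as SGLT2, had 52.6 and 70.7 FPKM in ADPKD and 72.3 and 93.5 FPKM in WT (log2 fold change -0.43, 95% interval -1.03 to 0.18). For both genes, as for Slc5a1, the groups nearly touch and the interval includes 0.

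Among monocarboxylate carriers 2 of 3 fell, against 4.78% of all genes tested. Slc5a8, which encodes the high-affinity sodium-lactate cotransporter SMCT1 of the late proximal tubule (chromosome 10, 88885992 to 88929515), stood at 15.7 and 8.84 FPKM in ADPKD and at 47.2 and 69.5 FPKM in WT. It fell by 2.18 (SE 0.34, limma adjusted p = 0.0302). Slc16a4, of the monocarboxylate transporter family (chromosome 3, 107291230 to 107312115), stood at 5.15 and 3.28 FPKM in ADPKD and at 41.9 and 39.8 FPKM in WT. It fell by 3.03 (SE 0.22, limma adjusted p = 0.0164), the smallest adjusted p of the 41 genes, with WT libraries that differed by 1.05-fold. Slc5a12 encodes the low-affinity lactate cotransporter SMCT2 of the early tubule, and its groups overlapped, at 47.8 and 31.4 FPKM in ADPKD and 40.9 and 25.9 FPKM in WT (log2 fold change 0.24, 95% interval -0.60 to 1.08, limma adjusted p = 0.629). The level of Slc5a8 over that of Slc5a12 was 0.329 and 0.281 in ADPKD replicates 1 and 2, against 1.15 and 2.68 in WT.

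**Figure D3:**
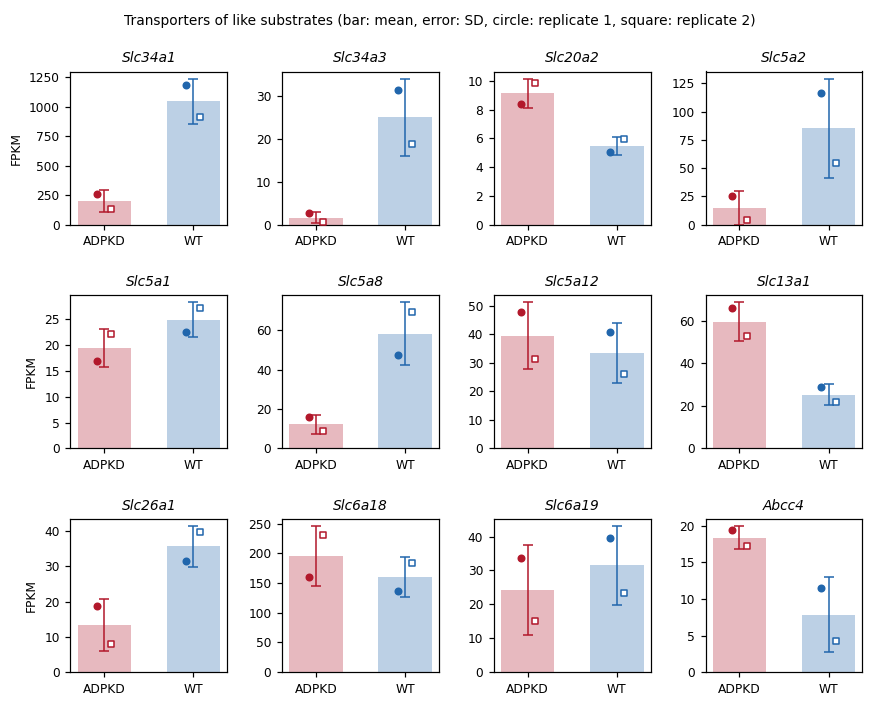
FPKM of 12 carriers in ADPKD (red) and WT (blue) kidneys; bars are means, error bars the SD of 2 libraries, circles replicate 1 and squares replicate 2, with each axis starting at 0 (the lower end of the Slc5a2 bar in ADPKD is cut there). Slc34a1, Slc34a3, Slc5a2, Slc5a1, Slc5a8 and Slc26a1 stood lower in both ADPKD libraries, Slc13a1, Slc20a2 and Abcc4 higher, and Slc5a12, Slc6a18 and Slc6a19 overlapped between groups.

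Amino acid carriers were divided: 3 of 10 fell, 0 rose, and the groups overlapped for 4. Of all genes tested 4.78% fell and 9.43% rose. Slc6a18 and Slc6a19 are neighbours on chromosome 13 (73661752 to 73678023 and 73679745 to 73704865) and encode apical neutral amino acid carriers, the first mostly in the late and the second in the early tubule. Slc6a18 had 160.2 and 231 FPKM in ADPKD and 136 and 184 FPKM in WT, a log2 fold change of 0.28 (95% interval -0.43 to 0.99, limma adjusted p = 0.505). By mean level it ranked 4 of the 41 genes in ADPKD kidney and 6 in WT kidney. Slc6a19 had 33.7 and 15.0 FPKM in ADPKD and 39.7 and 23.3 FPKM in WT, a log2 fold change of -0.42 (95% interval -1.65 to 0.82), which was 0.14 without ADPKD replicate 2. The groups overlapped for both genes, and both intervals include 0.

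Slc6a20b, a gene of the Slc6 carrier family (chromosome 9, 123590800 to 123632565), fell to 8.20 and 5.11 FPKM in ADPKD, against 26.2 and 29.2 FPKM in WT (log2 fold change -1.94, SE 0.24, limma adjusted p = 0.0243). Another gene covers 21.1% of its exon length. Slc6a13, which encodes the basolateral carrier GAT2 for GABA, betaine and taurine, fell to 23.0 and 23.2 FPKM in ADPKD, against 45.0 and 62.3 FPKM in WT (log2 fold change -1.16, SE 0.20, limma adjusted p = 0.0351). With median-of-ratios scaling its limma adjusted p was just above 0.05, which ended the call. Slc1a1, the gene of the apical glutamate and aspartate carrier EAAT3, stood at 9.56 and 8.42 FPKM in ADPKD and at 21.5 and 19.6 FPKM in WT, and fell by 1.11 (SE 0.15, limma adjusted p = 0.0263). Exons of 4430402I18Rik cover 31.9% of its exon length, where reads of the 2 genes cannot be told apart without strand. All 3 genes had both ADPKD libraries below both WT libraries, against 21.0% of all genes.

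Slc3a1 and the 4 carriers of the Slc7 family did not pass the test. Slc3a1 and Slc7a9 encode the rBAT and b0,+AT subunits of the apical cystine transporter. Slc7a9 had 29.1 and 19.3 FPKM in ADPKD and 51.3 and 42.7 FPKM in WT (log2 fold change -0.95, 95% interval -1.60 to -0.30, limma adjusted p = 0.0723). Slc3a1 had 61.2 and 82.5 FPKM in ADPKD and 79.2 and 162 FPKM in WT (log2 fold change -0.67, 95% interval -1.70 to 0.37), so that its groups overlapped. Prepl covers 26.5% of the exons of Slc3a1. Slc7a9 over Slc3a1 was 0.476 and 0.235 in ADPKD and 0.648 and 0.264 in WT, and these ratios overlapped too. Slc7a7 and Slc7a8 encode basolateral carriers that pair with the heavy chain encoded by Slc3a2. Slc7a7 had 26.3 and 14.2 FPKM in ADPKD and 43.6 and 23.3 FPKM in WT (log2 fold change -0.69, 95% interval -1.82 to 0.44), and Slc7a8 had 20.0 and 23.0 FPKM in ADPKD and 43.3 and 26.9 FPKM in WT (log2 fold change -0.65, 95% interval -1.35 to 0.06). Only for Slc7a8 of this pair did both ADPKD libraries lie below both WT libraries, as for 21.0% of all genes. Slc7a12, a carrier gene with more transcript in female than in male mouse kidney, had 14.3 and 4.95 FPKM in ADPKD and 37.8 and 32.8 FPKM in WT (log2 fold change -1.93, limma adjusted p = 0.0659). Its lowest value was in ADPKD replicate 2, the library with Xist.

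Of the sulfate carriers the apical one rose, while the basolateral one lay below WT without passing the test. Slc13a1, which encodes the apical sodium-sulfate cotransporter NaS1 (chromosome 6, 24088283 to 24168092), stood at 65.8 and 52.9 FPKM in ADPKD and at 28.7 and 21.8 FPKM in WT. It rose by 1.21 (SE 0.21, limma adjusted p = 0.0351) in both ADPKD libraries, a ratio of means of 2.35. Quantile normalization gave a log2 fold change of 1.14 and ended the call (limma adjusted p = 0.0595). Slc26a1, the gene of the basolateral sulfate-anion exchanger sat1, had 18.6 and 8.06 FPKM in ADPKD and 31.6 and 39.7 FPKM in WT (log2 fold change -1.45, 95% interval -2.53 to -0.37, limma adjusted p = 0.0837). The level of Slc13a1 over that of Slc26a1 was 3.54 and 6.57 in ADPKD, against 0.910 and 0.549 in WT: the apical gene was the higher of the pair in ADPKD libraries and the lower in WT libraries.

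Slc13a3, which encodes the basolateral dicarboxylate carrier NaDC3 (chromosome 2, 165405028 to 165473230), fell to 69.2 and 43.9 FPKM in ADPKD, against 168 and 153 FPKM in WT (log2 fold change -1.52, SE 0.26, limma adjusted p = 0.0337; 0.0584 after quantile normalization). The apical dicarboxylate and citrate carrier gene Slc13a2 had 22.8 and 26.0 FPKM in ADPKD and 35.4 and 35.3 FPKM in WT (log2 fold change -0.52, 95% interval -0.91 to -0.13, limma adjusted p = 0.0852). Slc13a2os covers 26.2% of its exons. Slc26a6, an apical exchanger of oxalate and chloride, was low in all libraries, at 1.48 and 1.27 FPKM in ADPKD and 2.43 and 2.44 FPKM in WT (log2 fold change -0.53, limma adjusted p = 0.103). All 3 genes had lower values in both ADPKD libraries than in either WT library, against 21.0% of all genes.

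Of the sodium and acid-base carriers the apical one fell, and the basolateral one overlapped between groups. Slc9a3, which encodes the apical sodium-proton exchanger NHE3 (chromosome 13, 74121457 to 74169442), stood at 7.46 and 7.21 FPKM in ADPKD and at 21.8 and 26.1 FPKM in WT. It fell by 1.58 (SE 0.16, limma adjusted p = 0.0201), and replicates lay close together in both groups. Slc4a4, the gene of the basolateral sodium-bicarbonate cotransporter NBCe1, had 34.7 and 46.9 FPKM in ADPKD and 43.7 and 34.5 FPKM in WT, with a log2 fold change of 0.05 (95% interval -0.54 to 0.65) that was -0.17 with median-of-ratios scaling. Slc9a3 over Slc4a4 was 0.215 and 0.154 in ADPKD and 0.497 and 0.758 in WT.

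Organic anion and cation carriers fell in 3 of 9 cases, against 4.78% of all genes tested. The pair of ABC pumps Abcc2 and Abcc4 lay above WT, as did 43.6% of all genes. Slc17a1 and Slc17a3 are neighbours on chromosome 13 (23867750 to 23895730 and 23839434 to 23860716) that encode apical anion and urate carriers of 1 family. Slc17a3 stood at 8.02 and 4.90 FPKM in ADPKD and at 35.6 and 68.9 FPKM in WT, and fell by 2.79 (SE 0.39, limma adjusted p = 0.0271). Slc17a1 had 112 and 85.7 FPKM in ADPKD and 168 and 194 FPKM in WT (log2 fold change -0.87, 95% interval -1.41 to -0.34, limma adjusted p = 0.0580). Within libraries Slc17a3 over Slc17a1 was 0.0716 and 0.0572 in ADPKD, against 0.212 and 0.356 in WT.

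Slc47a1, which encodes MATE1, an apical exporter of organic cations, fell to 87.9 and 62.9 FPKM in ADPKD, against 162 and 149.9 FPKM in WT (log2 fold change -1.05, SE 0.21, limma adjusted p = 0.0445; 0.0902 after quantile normalization). Slco4c1, a basolateral organic anion carrier gene, fell to 3.18 and 1.44 FPKM in ADPKD, against 6.99 and 8.12 FPKM in WT (log2 fold change -1.42, SE 0.31, limma adjusted p = 0.0499). That call lies at the threshold, and a pseudocount of 0.1 ended it. Slco1a6 had 9.49 and 5.99 FPKM in ADPKD and 18.3 and 30.1 FPKM in WT (log2 fold change -1.52, limma adjusted p = 0.0512). Its paralog Slco1a1, an androgen-driven anion carrier gene of male mouse kidney, was listed at 0 and 0.00950 FPKM in ADPKD (0 and 1 reads) and stood at 0.0515 and 3.98 FPKM in WT (5 and 378 reads). WT replicate 2 alone held nearly all of its reads and carried it past the filter, and limma did not call it.

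Of the ABC pumps of the brush border, which export conjugated anions and drugs, Abcc4 (MRP4) had 19.5 and 17.2 FPKM in ADPKD and 11.5 and 4.21 FPKM in WT. Its log2 fold change was 1.26, with a 95% interval of 0.08 to 2.44 (limma adjusted p = 0.128). WT libraries differed 2.73-fold, and the log2 fold change of Abcc4 was 1.89 without WT replicate 1 but 0.63 without WT replicate 2. Median-of-ratios scaling gave 1.05 (limma adjusted p = 0.197) and quantile normalization 1.04 (limma adjusted p = 0.197), so Abcc4 was not called with either. Abcc2 (MRP2) had 30.8 and 31.5 FPKM in ADPKD and 21.7 and 25.8 FPKM in WT (log2 fold change 0.38, 95% interval -0.03 to 0.80). Abcg2 (BCRP) had 19.5 and 20.2 FPKM in ADPKD and 29.6 and 30.3 FPKM in WT (log2 fold change -0.57, 95% interval -0.93 to -0.21, limma adjusted p = 0.0607). Replicates of Abcg2 differed by 1.04-fold or less, yet it missed the threshold with all libraries and passed it with quantile normalization (limma adjusted p = 0.0441), with a mean of at least 5 FPKM (0.0438) and with voom (0.0466). Against the median shift of 0.18 over all genes, the difference of Abcc2 was small, and it was 0.16 with median-of-ratios scaling.

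Slc23a1, which encodes the apical vitamin C carrier SVCT1 (chromosome 18, 35614604 to 35627244), stood at 37.1 and 27.1 FPKM in ADPKD and at 104 and 129 FPKM in WT. It fell by 1.84 (SE 0.22, limma adjusted p = 0.0231). Slc27a2, a fatty acid transport and acyl-CoA synthetase gene, was the most abundant of the 41 in ADPKD, at 398 and 438 FPKM, and had 693 and 1084 FPKM in WT (log2 fold change -1.05, 95% interval -1.78 to -0.32, limma adjusted p = 0.0736). Slc15a2, the gene of the apical peptide carrier PEPT2, had 10.8 and 5.38 FPKM in ADPKD and 14.9 and 19.1 FPKM in WT (log2 fold change -1.04, 95% interval -1.95 to -0.13, limma adjusted p = 0.112). Both ADPKD libraries lay below both WT libraries for all 3 genes, against 21.0% of all genes.

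The scaffold gene fell, and the water channel overlapped between groups. Pdzk1 encodes a scaffold that holds several apical carriers in place (chromosome 3, 96829284 to 96870926). It stood at 39.3 and 31.3 FPKM in ADPKD and at 113 and 134 FPKM in WT, and fell by 1.78 (SE 0.19, limma adjusted p = 0.0206); 3 other genes cover 41.7% of its exons. Aqp1, the water channel of the proximal tubule and descending limb (chromosome 6, 55336432 to 55348555), averaged 357 ± 0.424 FPKM in ADPKD and 356 ± 135 FPKM in WT (SD, n = 2 each). WT libraries lay on either side, at 260.1 and 452 FPKM, so the log2 fold change of 0.06 has a 95% interval of -0.75 to 0.87, and it was -0.17 with median-of-ratios scaling. Aqp1 over Pdzk1 was 9.07 and 11.4 in ADPKD, against 2.31 and 3.37 in WT.

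Genes that fell were found on both sides of the cell. Of 27 genes assigned to the apical membrane 9 fell and 1 rose, with a median log2 fold change of -0.87. Of 8 assigned to the basolateral membrane 3 fell and 0 rose, with a median of -0.93. The 6 genes placed on both membranes, such as Aqp1, or on neither had a median of -1.65, and 2 of them fell. Over all genes tested 4.78% fell and 9.43% rose, with a median of 0.18. No test of the difference between sides was made.

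The WT replicates differed in opposite directions for the carriers assigned to the early and to the late tubule. This was not tested. All 7 carriers assigned to the early tubule (Slc5a2, Slc5a12, Slc2a2, Slc4a4, Slc6a19, Slc7a7 and Slc7a8) were lower in WT replicate 2 than in WT replicate 1, and the 3 of the late tubule (Slc5a1, Slc5a8 and Slc6a18) were higher, while 18 of all 41 genes were lower in WT replicate 2. The other 31 members were not assigned to a segment, and 11 of them were lower in WT replicate 2. The segment lists were chosen with earlier results of these data known. Between the ADPKD libraries 5 of the 7 early carriers were lower in replicate 2, which is near the 27 of all 41 genes, and 2 of the 3 late carriers were higher. Summed early over summed late level was 1.05 and 0.550 in ADPKD replicates 1 and 2, and 1.69 and 0.721 in WT replicates 1 and 2, so the groups overlapped. Of the early carriers 0 of 7 were called by limma, and their log2 fold changes had a median of -0.57.

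**Figure D4:**
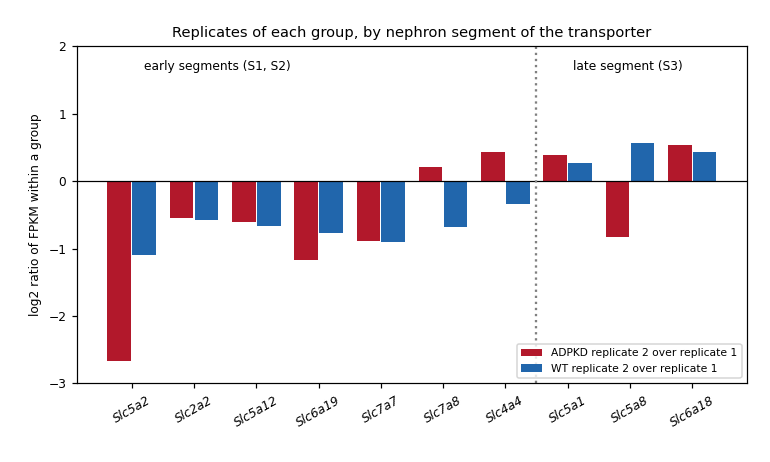
Log2 ratio of replicate 2 over replicate 1 within ADPKD (red) and within WT (blue), for 7 carriers of the early and 3 of the late proximal tubule. Blue bars are below 0 for all 7 early carriers and above 0 for all 3 late ones; red bars have the same sign as blue in 7 of the 10 genes, with Slc7a8, Slc4a4 and Slc5a8 as the exceptions.

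Proteins that work with these carriers were divided as well: of 16 partner and motive force genes 7 fell and 0 rose, against 4.78% lower and 9.43% higher of all genes tested. This list too was chosen with earlier results of these data known, so the shares only describe it. Cltrn, which encodes collectrin, needed for Slc6a18 and Slc6a19 protein at the brush border, fell to 156 and 52.6 FPKM in ADPKD, against 664 and 485 FPKM in WT (log2 fold change -2.63, SE 0.55, limma adjusted p = 0.0480; 0.0775 after quantile normalization). The scaffold genes Slc9a3r1 (NHERF1) and Slc9a3r2 (NHERF2), whose products bind NHE3 and NaPi-IIa, fell by 0.91 (SE 0.17, limma adjusted p = 0.0403; 0.0661 after quantile normalization) and by 1.83 (SE 0.28, limma adjusted p = 0.0303). Car4, the carbonic anhydrase of the brush border, fell to 10.7 and 10.3 FPKM in ADPKD, against 49.9 and 60.2 FPKM in WT (log2 fold change -2.28, SE 0.16, limma adjusted p = 0.0164).

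Slc7a13, whose product is the other partner of rBAT, fell to 1.71 and 1.92 FPKM in ADPKD, against 45.0 and 401 FPKM in WT (log2 fold change -5.60, SE 1.05, limma adjusted p = 0.0389; 0.0577 with median-of-ratios scaling and 0.0622 with voom). The WT libraries differed 8.92-fold for Slc7a13, and its call was also lost with the robust prior. Fxyd2, the gamma subunit of the sodium pump, fell to 286 and 245 FPKM in ADPKD, against 756 and 732 FPKM in WT (log2 fold change -1.49, SE 0.18, limma adjusted p = 0.0226). Atp1b1, the beta subunit of the pump, overlapped between groups, at 598 and 721 FPKM in ADPKD and 569.7 and 638 FPKM in WT (log2 fold change 0.12, 95% interval -0.40 to 0.65). Pdzk1ip1, the MAP17 partner of SGLT2, had 277 and 288 FPKM in ADPKD and 402 and 294 FPKM in WT, a log2 fold change of -0.28 (95% interval -0.85 to 0.29). Ezr, which encodes the membrane linker ezrin, and Chp1, which encodes a calcineurin B-like partner of sodium-proton exchangers, had both ADPKD libraries above both WT libraries, as did 43.6% of all genes. Neither was called (limma adjusted p = 0.0511 and 0.0538). With median-of-ratios scaling limma gave adjusted p = 0.215 for Ezr and 0.176 for Chp1, while both passed with voom (0.0345 and 0.0351), and Ezr with quantile normalization (0.0414). Slc3a2, Kcnj15, Kcnj16 and Car2 overlapped between groups. Without ADPKD replicate 2 limma called 0 of the 16 genes, and it called 2 without each of the other libraries in turn.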

How the data were processed

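RNA from whole mouse kidney was selected with oligo dT and sequenced, per the labels' protocols. The authors deposited FPKM values per gene for 2 ADPKD and 2 WT libraries, and groups and replicate numbers come from the sample titles. The submitters' processing notes list Bowtie2, DESeq2 and mm10, with no role or version. Per the file headers, featureCounts 1.6.0 counted reads in exons by gene name on Ensembl GRCm38 release 98, with multiply aligned reads included and no strand option. From that second deposited table positions and exon length (unit: bases, a further value of the authors' table) were used; its 16 columns of per-sample values could not be matched by name and were not used.

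Of 32176 rows, 25 with names turned into dates were left out. FPKM times exon length gave whole reads for 100% of values (tolerance 0.01 reads), which recovered the depth; limma's voom on those reads called 3039 genes, against 2417 by the main test. Log2(FPKM + 1) of 17001 genes with a mean of at least 0.5 FPKM was tested with limma 3.58.1 (R 4.3.3; intensity trend, two-sided, Benjamini-Hochberg, called below 0.05). Fold changes are on that scale, which understates those of low genes; intervals are limma's, at 95%. An exact permutation test of 2 against 2 cannot go below p = 0.333. Replicates differed by more than counting noise (chi-square per gene 72.3 in ADPKD, 62.8 in WT), so no library was a copy. Where leaving out a library left 1 in a group, it was assumed to vary like the other group. Promoters came from RefSeq (GRCm38.p6). The members and the lists of partners, segments and markers were chosen with earlier results of these data known. All 41 members, called partners and list counts are named by rule, and 2 partner genes in the counts are not reported here by name; ratios within libraries and the genes shown in plots were chosen after values were seen.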

Additional observations from a re-analysis of the deposited data

How the results depend on the processing

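The number of members that fell was 14, and 12 to 20 with a pseudocount of 0.1, a mean of at least 5 FPKM, quantile normalization, median-of-ratios scaling, the robust prior, voom on recovered reads and the replicate block. With no filter limma called 0 members in either direction, 0 partner genes and 1 of 32151 genes, with 28 members at an unadjusted p under 0.05. Leaving out each replicate in turn, the number that fell ranged from 0 to 8, the number that rose from 0 to 1, the partner genes called from 0 to 2 and the members' median log2 fold change from -1.15 to -0.82. Quantile normalization left 0 risen members. Median-of-ratios scaling moved the median to -1.25. The median of all genes, 0.18, was 0.0085 with that scaling and -0.012 with quantile normalization. The causes were not tested.

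The labels give both groups the numbers 1 and 2 with no word on what they share. Differences between replicates correlated at 0.19 over 17001 genes and at 0.40 over the 41 members; with 2 pairs this does not settle whether the numbers pair the samples, and they were not treated as pairs. With the replicate block 12 members fell and 4 partner genes were called; the calls of Slc5a8, Slc17a3 and Slco4c1 were lost (limma adjusted p = 0.0565, 0.0515 and 0.0688) and the early carrier Slc5a2 passed (0.0468). Of the partner calls 3 were lost, among them Slc9a3r1 (0.0599) and Slc9a3r2 (0.0545), and the red blood cell markers Hba-a1 (0.0464) and Hbb-bs (0.0406) passed.

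Of 488 member values under 12 alternatives 9 turned sign, in 4 uncalled members. Slc4a4 was -0.026 with quantile normalization, -0.17 with median-of-ratios scaling and -0.16 to 0.27 leaving out each replicate; Aqp1 was -0.17 with median-of-ratios scaling and -0.34 to 0.45 leaving out each replicate. Leaving out each replicate, Slc5a12 ranged from -0.077 to 0.56 and Slc6a19 from -0.98 to 0.14. These values rest on 2 libraries a group, and the parts that depth and the spread between libraries play in them were not tested.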
